A study of Mus musculus with 27 samples.

Results

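The Notch pathway was followed in the fetal mouse brain through 10 genes: 4 ligands (Dll1, Dll3, Jag1, Jag2), 3 receptors (Notch1, Notch2, Notch3) and 3 transcriptional targets (Hes1, Hes5, Hey1). They were taken from the gene count table by their symbols, and all 10 were found among its 55416 rows. Whole brains of female fetuses were collected on gestational days 12, 15 and 17 (d12, d15 and d17, counted from the plug as day 1) from matings of mice about 8 weeks old of 3 strains, with 3 libraries in each of the 9 groups, each library made from its own fetal brain. AKR/J is a short-lived inbred strain, and C57BL/6J is a long-lived inbred strain. Cav1-null mice (B6.Cg-Cav1tm1Mls/J) carry a knockout of Cav1, the gene of caveolin-1, on the C57BL/6J background, and are short-lived. No group received a treatment. The litters of the fetuses were not given, so the p-values measure the spread between these libraries. Following the study, the interval from d12 to d15 is called the early phase and that from d15 to d17 the late phase.

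Notch signalling passes between cells that touch. A ligand of the Delta or Jagged family on one cell binds a Notch receptor on its neighbour, the receptor is cut by the gamma-secretase complex, and its intracellular part enters the nucleus, joins the DNA-binding protein RBPJ and switches on repressors of the Hes and Hey families. In the developing brain these repressors hold neural progenitors, the radial glia, back from becoming neurons, and ligands are displayed by newborn neurons and committed progenitors. Dll3 is the exception among the ligands, since it acts mostly inside the cell that makes it and does not activate receptors on neighbours. RNA levels do not measure this signalling.

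The libraries held 26363697 to 39759702 reads on genes, with a median of 29700746. Cav1 was at 0 to 0.509 CPM (reads of a gene scaled to a common library size) in the 9 Cav1-null libraries, against 9.25 to 34.2 in AKR/J and 10.4 to 39.9 in C57BL/6J. The brain label fitted the marker lists, with sums of 1191 to 4319 CPM over 10 radial glia genes and 2032 to 8020 CPM over 11 neuron genes. Single libraries held more mesenchyme RNA than the rest of their group. The sums were 5182 CPM in C57BL/6J d15 replicate 1 (372.7 and 617.5 in the others), 1251 in AKR/J d15 replicate 2 (137.0 and 128.9) and 1202 in C57BL/6J d17 replicate 1 (115.8 and 202.6). Skeletal muscle genes stood at 70.6 CPM in the first of these (8.71 and 8.20 in the others) and at 114.4 in the second (7.48 and 8.54). The AKR/J d12 libraries also held 33270 to 198100 CPM of 14 erythroid genes, against at most 18630 in any other library, and 43.7 to 921 CPM of 32 trophoblast and decidua genes, against 152 in C57BL/6J d12 replicate 3 and at most 15.3 in the rest. Cav1-null d12 replicate 3 stood apart from its group in several marker sums. It held 733.7 CPM of choroid plexus genes (327.5 and 294.0 in replicates 1 and 2), 1166 of mesenchyme genes (209.9 and 152.1) and 959.6 of proliferation genes (1763 and 1896). Its Dll1, Notch1, Hes5 and Hey1 levels were the lowest of its group. The libraries further differed in how levels followed GC content. For a GC index, the log2 level of each gene was taken relative to its own mean over the 27 libraries. The index is the median of these values in the 10% of genes richest in GC less that in the 10% poorest. It was 0.924 to 0.992 in C57BL/6J d15 and -0.88 to -0.301 in AKR/J d12, and highest, at 1.09, in C57BL/6J d17 replicate 1. Values with this trend and that of transcript length removed, a correction chosen after seeing the data, are given beside the results whose call they end or whose called direction they turn. In whole brains, fewer cells of a type and less RNA per cell cannot be told apart.

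The promoters of Hes1 and Hes5 are shown because they carry the letters through which RBPJ binds DNA, GTGGGAA, printed in capitals on whichever strand they lie (as GTGGGAA or, read on the other strand, TTCCCAC). The sequences are from the GRCm39 genome, 5′ to 3′ along the gene, and cover the 250 bases before the start of the canonical transcript in GENCODE vM39. Hes1 is shown at chr16:29883877-29884126 and Hes5 at chr4:155045123-155045372, both on the plus strand.
Hes1: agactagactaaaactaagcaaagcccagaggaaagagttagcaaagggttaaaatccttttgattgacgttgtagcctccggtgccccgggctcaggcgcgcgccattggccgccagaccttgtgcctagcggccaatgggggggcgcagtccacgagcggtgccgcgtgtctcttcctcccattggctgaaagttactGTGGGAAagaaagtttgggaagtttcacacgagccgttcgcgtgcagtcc
Hes5: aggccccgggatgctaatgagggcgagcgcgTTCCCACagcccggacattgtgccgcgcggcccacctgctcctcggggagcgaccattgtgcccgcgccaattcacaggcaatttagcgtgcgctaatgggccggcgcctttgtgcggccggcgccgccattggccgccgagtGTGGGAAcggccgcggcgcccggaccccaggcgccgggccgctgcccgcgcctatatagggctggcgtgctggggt
Hes1 held the letters once, beginning 50 bases before the start, and Hes5 held them at 219 and at 76 bases on opposite strands. The promoters of the 7 ligands and receptors held none in their 250 bases. Of the 21770 promoters of protein-coding genes, 1192 (5.48%) held the letters at least once and 37 (0.17%) at least 2 times. A match is a run of letters and was not tested for binding.

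Between days, the called changes of the 10 genes were falls in every strain, apart from those of Jag2, which rose. In the early phase, AKR/J had 1 gene that rose and 5 that fell, where 14.8% of all genes tested rose and 14.0% fell. C57BL/6J had 0 that rose and 5 that fell (7.08% and 7.8% of all genes), and Cav1-null had 1 that rose and 9 that fell (11.6% and 11.8%). In the late phase, AKR/J had 1 that rose and 9 that fell (11.6% and 10.4% of all genes), C57BL/6J had 0 that rose and 7 that fell (7.46% and 5.58%), and Cav1-null had 1 that rose and 5 that fell (14.5% and 12.8%). The libraries of the later day all lay below those of the earlier day for 7, 5 and 9 genes in the early phase in the same order (19.7%, 20.8% and 20.2% of all genes) and for 9, 9 and 6 in the late phase (21.1%, 25.0% and 21.0%). Calls are by the edgeR quasi-likelihood test at an adjusted p under 0.05. The medians over the 10 genes were -0.83, -0.65 and -0.99 log2 fold change in the early phase in AKR/J, C57BL/6J and Cav1-null, against 0.02, -0.04 and -0.01 over all genes. In the late phase they were -0.89, -0.95 and -0.34, against -0.01, 0.03 and 0.00.

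Dll3 and Hes5 fell in all 3 strains in the early phase, and Notch1, Dll1, Dll3, Jag1 and Hes1 did so in the late phase. Both phases use the same d15 libraries. A high or low d15 value therefore enters both changes. The number of calls depended on single libraries. Held in every fit that left out 1 library were, in the early phase, Jag2, Notch3 and Hes5 in AKR/J and Dll3, Dll1, Jag1, Notch3, Hes1, Hes5 and Hey1 in Cav1-null. In the late phase they were Jag1, Notch1, Notch2, Notch3, Hes1 and Hey1 in AKR/J and Dll1, Dll3, Notch1 and Hes1 in Cav1-null. In the early phase of C57BL/6J, 0 genes were called by edgeR without d15 replicate 1, 2 or 3 (8, 7 and 6 at an unadjusted p under 0.05), in fits that called 6, 0 and 2 of all genes. In the late phase of C57BL/6J, 0 were called without d17 replicate 3 (8 at an unadjusted p under 0.05, in a fit that called 160 of 20858 genes) and 2, 1 and 3 without d15 replicate 1, 2 and 3. In the early phase of AKR/J, 3 were called without d15 replicate 1, and in its late phase 6 without d17 replicate 3. In 1 model of all 27 libraries 0 were called in the Cav1-null late phase (5 at an unadjusted p under 0.05, with 829 of all 23307 genes called), and with the replicate block 0 in the C57BL/6J early phase (8 at an unadjusted p under 0.05). When libraries were scaled by their size alone, the median of all genes moved to 0.46 log2 in the AKR/J early phase, and 1 gene then rose and 1 fell there. With the GC and length trend removed, 9 AKR/J genes, 8 C57BL/6J genes and 10 Cav1-null genes were called early, and 10, 8 and 7 late. Of all genes, these fits called 5716 of 19935, 3779 of 19154 and 4880 of 19934 early, and 4366 of 19989, 3760 of 19888 and 6381 of 20245 late.

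The other called changes were each lost without certain single libraries. Early in AKR/J, Dll3 was lost without d15 replicate 1, Notch1 without any of the d15 libraries, and Jag1 without any of these or d12 replicate 3. Late in AKR/J, the rise of Jag2 was lost without d17 replicate 3, the fall of Dll1 without d15 replicate 1 or 3 or d17 replicate 2 or 3, and those of Dll3 and Hes5 without d15 replicate 1 or any d17 library. The early fall of Hes1 in C57BL/6J was also lost without d12 replicate 1. Of its late falls, Dll3 was also lost without d15 replicate 2, Jag1 without d15 replicate 1 or 2, Hes1, Notch1 and Notch2 without any d15 library, and Notch3 without any of these or d17 replicate 2. In Cav1-null the early rise of Jag2 was lost without d12 replicate 1 or 2 or d15 replicate 1 or 2, the early fall of Notch1 without any of the d15 libraries or d12 replicate 1 or 2, and that of Notch2 without d15 replicate 1 or 3. Its late rise of Jag2 was lost without d15 replicate 3 or d17 replicate 2 and its late fall of Jag1 without d17 replicate 3.

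**Figure D1:**
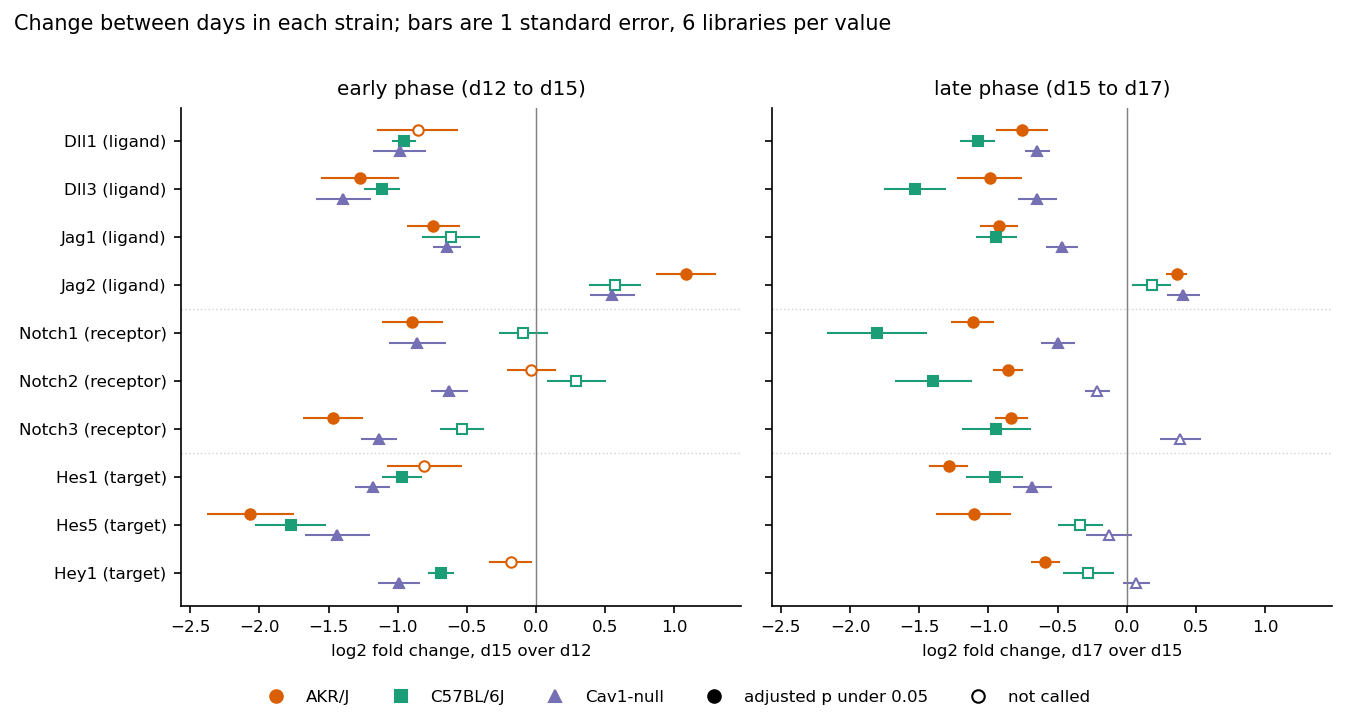
Log2 fold change (x axis) of each ligand, receptor and target (y axis) between d12 and d15 and between d15 and d17 in AKR/J (circles), C57BL/6J (squares) and Cav1-null (triangles), with bars of 1 standard error and filled symbols at an adjusted p under 0.05. Jag2 lies right of 0 in all 6 changes, and Hes5 has the largest early fall in each strain.

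Dll1, the main activating ligand of newborn neurons and committed progenitors, declined from day to day in each strain. In C57BL/6J, Dll1 was at 122, 135 and 135 CPM on d12, at 69.2, 72.4 and 68.3 on d15, and at 35.9, 29.5 and 29.9 on d17. The 3 days did not overlap, and both falls were called, by 0.95 on the log2 scale (SE 0.0876, adjusted p = 0.013) and by 1.08 (SE 0.127, adjusted p = 0.00548). In Cav1-null, Dll1 went from 89.8, 85.2 and 49.1 CPM to 36.9, 39.0 and 36.7 and then to 22.0, 24.4 and 25.4. These days did not overlap either, and the falls were by 0.99 (adjusted p = 0.00767) and by 0.65 (adjusted p = 0.000151). In AKR/J the values were 76.7, 135 and 77.9, then 59.7, 37.9 and 67.8, then 35.5, 29.3 and 32.0 CPM. The AKR/J groups did not overlap, but the early log2 fold change of -0.86 (SE 0.293) had an adjusted p of 0.0603, while the late fall of 0.75 (SE 0.188) was called (adjusted p = 0.024).

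Dll3, the ligand that acts within the cell that makes it, fell in all 6 changes. Its levels on d12 were 30.9, 47.6 and 38.9 CPM in AKR/J, 46.6, 66.6 and 58.4 in C57BL/6J, and 21.8, 27.4 and 15.4 in Cav1-null. On d15 they were 17.0, 11.04 and 22.1 in AKR/J, 27.8, 27.4 and 26.9 in C57BL/6J, and 8.1, 7.8 and 8.6 in Cav1-null. On d17 they were 8.0, 9.3 and 7.6, then 11.7, 6.5 and 8.9, then 5.5, 5.0 and 5.1 in the same order. The days were apart in each strain, with the highest group mean (C57BL/6J d12) 11.01 times the lowest (Cav1-null d17), the widest range of the 10 genes. The log2 fold changes were -1.27, -1.11 and -1.39 in the early phase (adjusted p = 0.0125, 0.016 and 0.00199) and -0.99, -1.53 and -0.64 in the late phase (adjusted p = 0.0196, 0.00932 and 0.00421).

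Jag1, a Jagged ligand of progenitors and of vessel walls, fell in the late phase in all 3 strains. Its group means were 57.7 ± 11.6, 35.6 ± 3.91 and 18.6 ± 3.18 CPM (SD, n = 3) on d12, d15 and d17 in AKR/J, 57.7 ± 15.4, 38.9 ± 4.58 and 19.4 ± 1.73 in C57BL/6J, and 33.2 ± 2.19, 21.2 ± 0.785 and 15.3 ± 2.49 in Cav1-null. The late log2 fold changes were -0.92, -0.94 and -0.47 (adjusted p = 0.00321, 0.011 and 0.00947). In the early phase the falls of 0.74 (AKR/J, adjusted p = 0.022) and 0.64 (Cav1-null, adjusted p = 0.00299) were called, and the log2 fold change of -0.61 in C57BL/6J was not (SE 0.207, adjusted p = 0.0813).

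Jag2, the other Jagged ligand, went the opposite way. In AKR/J it was at 24.7, 42.3 and 27.6 CPM on d12, at 69.9, 67.9 and 69.4 on d15, and at 92.2, 81.3 and 90.1 on d17. The days did not overlap, and both rises were called, by 1.08 (SE 0.218, adjusted p = 0.00888) and by 0.36 (SE 0.0772, adjusted p = 0.0133) on the log2 scale. In Cav1-null it was at 43.3, 39.8 and 55.4, then 76.2, 72.2 and 54.8, then 81.4, 104 and 84.1 CPM. Here d12 and d15 overlapped in 1 library each, and the rises of 0.55 (SE 0.163, adjusted p = 0.0394) and 0.41 (SE 0.12, adjusted p = 0.0211) were called. In C57BL/6J it was at 64.7, 82.4 and 45.2, then 90.0, 98.0 and 106, then 121, 98.7 and 98.5 CPM. The d12 libraries lay below those of d15, but neither change was called there (0.57, SE 0.188, adjusted p = 0.0782, and 0.18, SE 0.141, adjusted p = 0.397). With the GC and length trend removed, the late log2 fold change in C57BL/6J was 0.67 (adjusted p = 0.0347), and the early changes in AKR/J and C57BL/6J were 0.45 (adjusted p = 0.032) and 0.12 (adjusted p = 0.394).

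The make-up of the ligand RNA turned over between d12 and d17. Per kilobase of exon, the scale on which genes can be compared, Dll1 led on d12 with 41.5%, 41.5% and 43.3% of the summed CPM per kb of the 4 ligands in AKR/J, C57BL/6J and Cav1-null. Jag2 then held 9.52%, 14.2% and 19.6%. On d17 Jag2 led with 50.1%, 54.3% and 58.0%, and Dll1 held 26.3%, 23.3% and 22.2%. Dll3 went from 27.8%, 29.3% and 20.4% on d12 to 11.1%, 10.6% and 7.88% on d17, while Jag1 went from 21.2%, 15.0% and 16.6% to 12.5%, 11.8% and 11.9%. The sum of the 4 ligands itself went from 46.4, 63.9 and 34.2 CPM per kb on d12 to 24.7, 27.6 and 21.8 on d17.

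The ratio of Jag2 to Dll1 shows this turn in each library, since library size cancels within it. The GC trend does not cancel, since Jag2 has 61.9% GC and Dll1 53.9%. In AKR/J it was 0.226, 0.219 and 0.247 on d12, 0.819, 1.25 and 0.716 on d15, and 1.82, 1.94 and 1.97 on d17. In C57BL/6J it was 0.371, 0.426 and 0.234, then 0.910, 0.947 and 1.08, then 2.36, 2.34 and 2.31. In Cav1-null it was 0.337, 0.327 and 0.789, then 1.44, 1.30 and 1.04, then 2.59, 2.98 and 2.32. The value of 0.789 was that of d12 replicate 3, whose marker sums stood apart from its group. In every strain the 3 days were apart without overlap, and all 9 libraries of d12 lay below 1 and all 9 of d17 above it. With the GC and length trend removed, the log2 fold changes of Jag2 in AKR/J, C57BL/6J and Cav1-null were 0.45, 0.12 and 0.57 early and 0.50, 0.67 and 0.21 late, all called but the early one of C57BL/6J, and those of Dll1 were -1.07, -1.08 and -0.93 early and -0.66, -0.83 and -0.70 late, all called. An exact permutation test of 3 against 3 libraries cannot give a p below 0.1, so none is given.

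**Figure D2:**
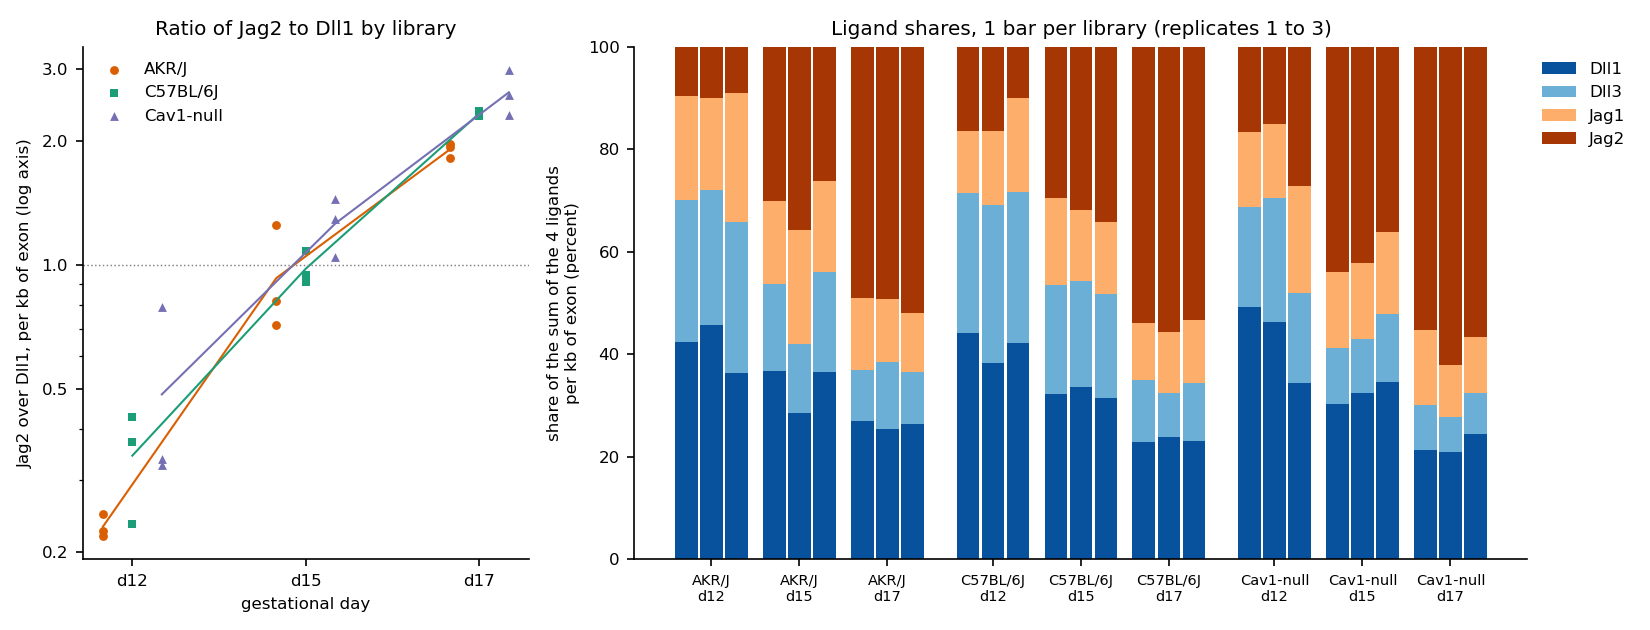
Left, ratio of Jag2 to Dll1 per kb of exon (log axis) in each of the 27 libraries by gestational day, with lines joining the group means and a dotted line at 1; right, share of each ligand (percent) in the sum of the 4 ligands per kb, 1 bar per library. The ratio rises from 0.219 to 0.789 on d12 to 1.82 to 2.98 on d17.

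The receptors fell too, and from the counts the phase in which a fall was called was not the same in each strain, although the edgeR interaction tests called 0 of the 10 genes. DESeq2 and a fit with no filter on low counts each called 4 for Cav1-null in the late phase. After removal of the GC and length trend, the early falls in C57BL/6J were called for Notch1 (-0.60, adjusted p = 0.0127) and Notch3 (-1.13, adjusted p = 0.0173) and not for Notch2 (-0.17, adjusted p = 0.311), that of Notch2 was called in AKR/J (-0.74, adjusted p = 0.0116), and the late fall of Notch2 was called in Cav1-null (-0.44, adjusted p = 0.00205). Notch1, the main receptor of radial glia, was at 104, 164 and 108 CPM on d12 in AKR/J, at 64.1, 62.9 and 82.0 on d15, and at 39.3, 27.6 and 28.6 on d17. The AKR/J days did not overlap, and Notch1 fell by 0.89 (SE 0.223, adjusted p = 0.0195) and then by 1.11 (SE 0.156, adjusted p = 0.00251) on the log2 scale. In C57BL/6J it was at 167, 263 and 158, then 185, 196 and 186, then 86.0, 34.4 and 34.7 CPM. Here d12 and d15 overlapped (-0.09, SE 0.176, adjusted p = 0.741), and a fall of 1.80 (SE 0.363, adjusted p = 0.023) came in the late phase, with d17 replicate 1 well above the other two libraries of its group. The GC index of that library was 1.09, the highest of the 27, against -0.273 and 0.375 in the other two. In Cav1-null it was at 87.9, 75.8 and 46.1, then 42.3, 38.8 and 34.1, then 22.3, 31.9 and 27.3 CPM, with falls by 0.86 (adjusted p = 0.0171) and 0.50 (adjusted p = 0.00919).

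Notch3, a receptor of progenitors and of the mural cells of vessels, was at 113, 186 and 128 CPM on d12 in AKR/J and at 49.3, 53.7 and 56.6 on d15, a fall by 1.47 on the log2 scale (SE 0.215, adjusted p = 0.00305). In Cav1-null it went from 56.4, 56.9 and 54.8 to 28.8, 27.3 and 20.4 CPM, a fall by 1.13 (SE 0.129, adjusted p = 0.000755). In both strains the days were well apart. In C57BL/6J it went from 113, 175 and 159 to 115, 100.7 and 103 CPM (log2 fold change -0.53, SE 0.158, adjusted p = 0.0592), and the groups overlapped. In the late phase it fell by 0.83 in AKR/J (adjusted p = 0.00274) and by 0.94 in C57BL/6J (adjusted p = 0.0491). In Cav1-null the d17 values were 28.4, 41.1 and 30.3 CPM, on average above those of d15 (0.39, SE 0.148, adjusted p = 0.0686).

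Notch2, another receptor of progenitors, was called lower in 3 of the 6 changes. Its group means were 52.4 ± 8.82, 52.9 ± 5.23 and 28.9 ± 2.23 CPM (SD, n = 3) on d12, d15 and d17 in AKR/J, 94.96 ± 32.0, 119 ± 14.3 and 43.3 ± 17.8 in C57BL/6J, and 51.2 ± 8.62, 33.2 ± 2.37 and 28.6 ± 1.66 in Cav1-null. It had no called early change in AKR/J (-0.03, SE 0.176, adjusted p = 0.905) or C57BL/6J (0.29, SE 0.214, adjusted p = 0.363) and fell by 0.63 in Cav1-null (adjusted p = 0.0119). Late, its log2 fold changes were -0.86 in AKR/J (adjusted p = 0.0017) and -1.399 in C57BL/6J (adjusted p = 0.0224), both called, and -0.21 in Cav1-null (SE 0.0902, adjusted p = 0.0996). Per kilobase of exon, Notch3 led the 3 receptors on d12 and d17, with 53.8%, 43.1% and 39.9% of their summed CPM per kb on d12 in AKR/J, C57BL/6J and Cav1-null and 40.5%, 44.7% and 45.1% on d17. On d15 the receptors were closer, with Notch1 at 31.5%, 37.3% and 31.8%, Notch2 at 30.4%, 29.6% and 35.0%, and Notch3 at 38.1%, 33.0% and 33.2%.

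Hes5, the most abundant of the 3 targets per kilobase in every group, fell steeply and early. It was at 64.2, 57.3 and 92.5 CPM on d12 and at 17.7, 10.7 and 24.3 on d15 in AKR/J, a fall by 2.07 on the log2 scale (SE 0.316, adjusted p = 0.00356). In C57BL/6J it went from 34.1, 39.7 and 66.4 to 13.7, 14.8 and 14.1 CPM, by 1.78 (SE 0.257, adjusted p = 0.0178). In Cav1-null it went from 28.8, 31.4 and 17.7 to 11.5, 9.9 and 7.3 CPM, by 1.44 (SE 0.235, adjusted p = 0.00356). No d15 library of any strain reached the d12 libraries of its own strain, and Hes5 had the largest early fall of the 10 genes in each strain. By d17 the 9 libraries lay between 6.8 and 12.2 CPM. The late fall was called in AKR/J (1.11, SE 0.269, adjusted p = 0.0217) and not in C57BL/6J (-0.33, SE 0.161, adjusted p = 0.19) or Cav1-null (-0.13, SE 0.165, adjusted p = 0.618).

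Hes1, a repressor of proneural genes in radial glia, fell in both phases. Its values were 54.5, 31.1 and 27.0 CPM on d12, 21.8, 24.5 and 20.2 on d15, and 8.24, 10.02 and 8.69 on d17 in AKR/J. In C57BL/6J they were 36.3, 35.6 and 28.2, then 19.9, 16.4 and 16.7, then 10.9, 7.1 and 8.2 CPM, and in Cav1-null 25.3, 26.4 and 20.7, then 10.5, 10.7 and 10.6, then 6.5, 7.6 and 5.7 CPM. The days were apart in each strain. The late falls were by 1.29 (adjusted p = 0.00119), 0.95 (adjusted p = 0.0274) and 0.68 (adjusted p = 0.00278) on the log2 scale, and the early falls by 0.97 in C57BL/6J (adjusted p = 0.0178) and 1.18 in Cav1-null (adjusted p = 0.000609). The early log2 fold change in AKR/J was -0.81 (SE 0.271, adjusted p = 0.0558). The share of Hes5 in the summed CPM per kb of the 3 targets went from 73.9% to 48.9% to 46.5% in AKR/J, from 63.3% to 48.8% to 53.0% in C57BL/6J and from 58.4% to 52.6% to 55.3% in Cav1-null.

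Hey1, a Hey family repressor, varied least of the 10 genes, with the highest group mean (C57BL/6J d12) 2.89 times the lowest. The phase of its fall differed between the strains as called. It fell early in C57BL/6J, from 41.0, 42.8 and 42.5 to 27.7, 27.8 and 25.6 CPM (by 0.69, SE 0.0955, adjusted p = 0.0172), and in Cav1-null, from 33.0, 32.0 and 22.2 to 14.8, 14.9 and 14.04 CPM (by 0.99, SE 0.151, adjusted p = 0.00261). In AKR/J it went from 33.8, 31.0 and 33.4 to 29.4, 26.7 and 33.0 CPM in the early phase (-0.18, SE 0.156, adjusted p = 0.415, or -0.33, adjusted p = 0.114, with the GC and length trend removed) and fell to 19.2, 18.6 and 20.8 in the late phase (by 0.59, SE 0.105, adjusted p = 0.00661). The AKR/J days d12 and d15 overlapped and d15 and d17 did not. In Cav1-null the d17 libraries were at 15.3, 15.2 and 15.2 CPM, slightly above those of d15 and with no called change (0.07, SE 0.1, adjusted p = 0.657).

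Ordered by group mean, C57BL/6J d12 was highest for Notch1, Notch3, Dll1, Dll3, Jag1 and Hey1, C57BL/6J d15 for Notch2, C57BL/6J d17 for Jag2, and AKR/J d12 for Hes1 and Hes5. The lowest group was Cav1-null d17 for Notch1, Notch2, Dll1, Dll3, Jag1 and Hes1, Cav1-null d15 for Notch3 and Hey1, AKR/J d17 for Hes5 and AKR/J d12 for Jag2. The highest mean was 7.22 times the lowest for Notch1, 4.18 for Notch2, 5.85 for Notch3, 5.47 for Dll1, 3.77 for Jag1, 3.37 for Jag2, 5.69 for Hes1 and 8.86 for Hes5. Most groups next to each other in this order could not be told apart by their libraries. Of the 8 neighbouring pairs, those without overlap numbered 4 for Hes1 and Hey1, 3 for Dll1, 2 for Notch1, Dll3, Jag1 and Hes5, and 1 for Notch2, Notch3 and Jag2. For Hes1, the groups followed the day strictly, with every d12 mean above every d15 mean and every d15 mean above every d17 mean, and within each day AKR/J above C57BL/6J above Cav1-null.

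**Figure D3:**
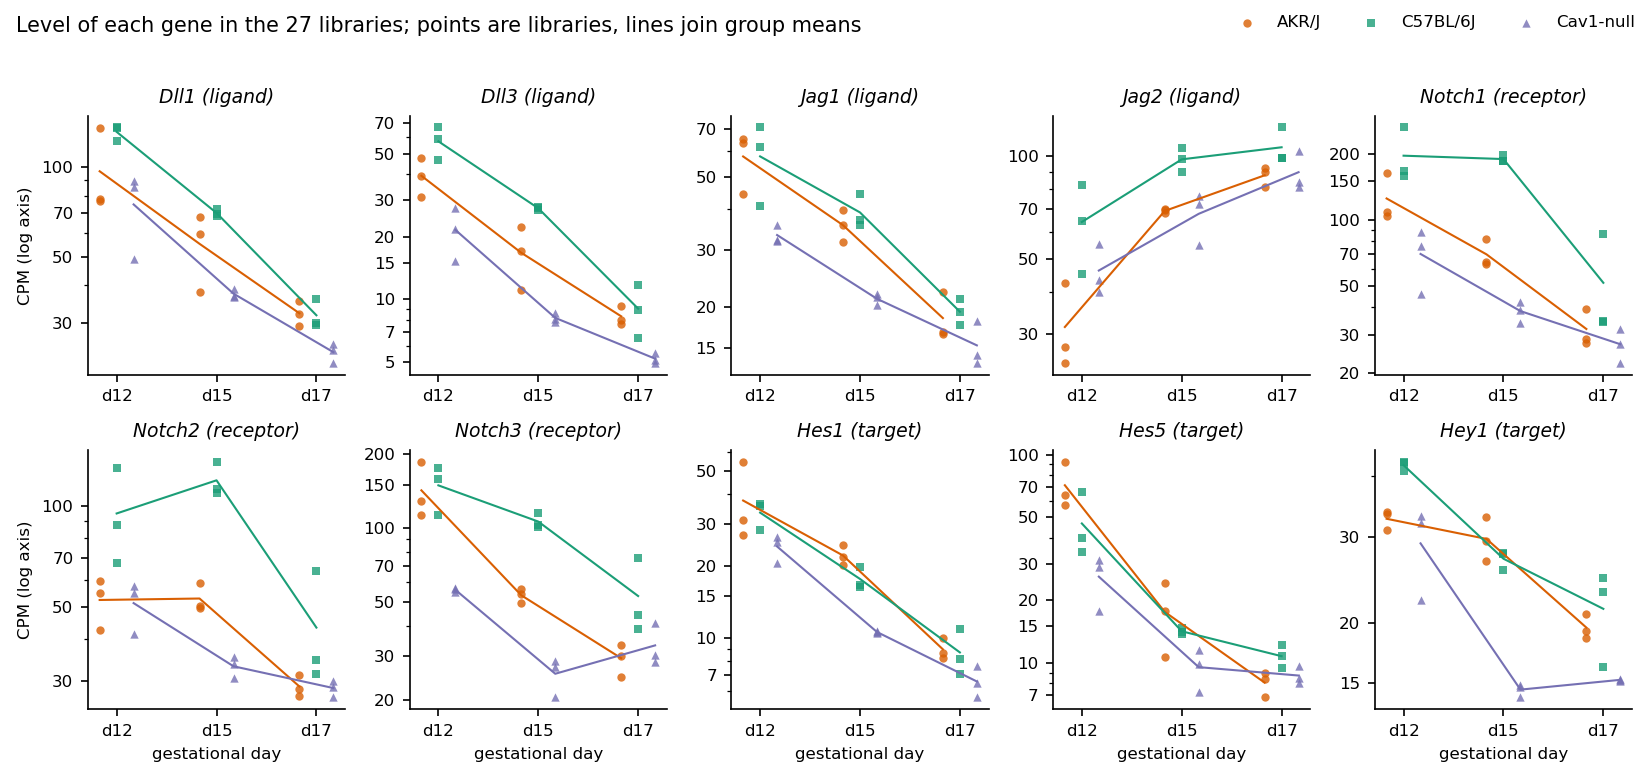
Level in CPM (log axis) of each of the 10 genes by gestational day, with 1 point per library (AKR/J circles, C57BL/6J squares, Cav1-null triangles) and lines joining the group means. Jag2 has its highest mean on d17 in each strain, and the C57BL/6J d15 libraries lie above both other strains for Notch1, Notch2 and Notch3.

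The strains were next compared on each day. Both comparisons use the same C57BL/6J libraries. On d15, Cav1-null was lower than C57BL/6J for all 10 genes, on a day when 58.6% of all genes tested differed, 26.8% higher and 31.8% lower. The largest differences were in the receptors, with Notch1 lower by a log2 difference of -2.26 (SE 0.0792, adjusted p = 1.99e-08), Notch3 at -2.02 (SE 0.118, adjusted p = 2.51e-07) and Notch2 at -1.81 (SE 0.0953, adjusted p = 1.27e-07), and in Dll3 at -1.71 (SE 0.0995, adjusted p = 2.43e-07). The other six genes lay between -0.86 (Dll1) and -0.49 (Jag2). AKR/J on d15 was lower for Notch1 (-1.37, SE 0.0962, adjusted p = 0.000164), Notch2 (-1.10, SE 0.118, adjusted p = 0.000473), Notch3 (-0.93, SE 0.0788, adjusted p = 0.000258), Dll3 (-0.65, SE 0.21, adjusted p = 0.0421) and Jag2 (-0.43, SE 0.0702, adjusted p = 0.00239). Hes1 was higher in AKR/J (0.40, SE 0.131, adjusted p = 0.0457). The AKR/J calls of Dll3 (without d15 replicate 1 of AKR/J or any C57BL/6J library) and Hes1 (without d15 replicate 1 or 2 of AKR/J or 2 or 3 of C57BL/6J) and the Cav1-null call of Hes5 (without C57BL/6J replicate 2 or Cav1-null replicate 3) were lost when 1 library was left out. On d15 41.1% of all genes tested differed between AKR/J and C57BL/6J, 18.8% higher and 22.3% lower. All libraries lay below those of C57BL/6J for 10 genes in Cav1-null and 6 in AKR/J, as did 35.8% and 30.0% of all genes.

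The GC index of the C57BL/6J d15 libraries, 0.924 to 0.992, was above that of every library of the other two strains, and 8 of 8 endothelial genes were lower than in them in both other strains. Markers of several cell types, though not of all, moved with the Notch genes on this day. Of 11 neuron genes, 5 were lower and 3 higher in Cav1-null (median -0.12) and 4 lower and 0 higher in AKR/J (median -0.03). Of 7 microglia genes, 3 were lower and 2 higher in Cav1-null and 2 lower and 2 higher in AKR/J. In Cav1-null, 8 of 10 radial glia genes were lower and 2 higher (median -0.81, against -0.86 for the 10 Notch genes), and 6 of 6 intermediate progenitor and 5 of 5 oligodendrocyte genes were lower. Of the mural genes 5 of 7 were lower and 1 higher (median -1.82), of the mesenchyme genes 5 of 8 were lower (median -1.65), of the astrocyte genes 4 were lower and 1 higher, and of the 8 proliferation genes 5 were lower and 2 higher. In AKR/J, 4 radial glia genes were lower and 2 higher, 3 intermediate progenitor, 3 oligodendrocyte and 3 astrocyte genes were lower, 4 mural genes were lower and 1 higher, and 2 proliferation genes were lower and 4 higher. With the GC and length trend removed, Notch1 stayed lower in Cav1-null (-1.15) and in AKR/J (-0.50, adjusted p = 0.00861), and Notch2 in AKR/J was at -0.37 (adjusted p = 0.0382). In Cav1-null, Dll3 was then at -0.98, Notch2 at -0.89 and Notch3 at -0.79, all still called, and the median of the 10 genes was -0.46. The Cav1-null calls of Hes1 (0.11, adjusted p = 0.488) and Hes5 (-0.14, adjusted p = 0.38) and the AKR/J call of Dll3 (-0.13, adjusted p = 0.662) were lost. Jag2 then changed sign, to 0.71 in Cav1-null (adjusted p = 1.03e-05) and 0.49 in AKR/J (adjusted p = 0.00636), and Notch3 in AKR/J was at 0.04. Of the 10 genes, 1 was then called higher and 7 lower in Cav1-null, and 3 higher and 2 lower in AKR/J. Of all genes, 5253 were higher and 4404 lower of 19827 in Cav1-null in these fits, and 2718 higher and 2379 lower of 19692 in AKR/J. With library sizes alone, 2 were higher and 4 lower in AKR/J, where 5542 of all 19692 genes were higher and 3281 lower. The part of the GC trend and of these cell types in the differences was not tested.

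**Figure D4:**
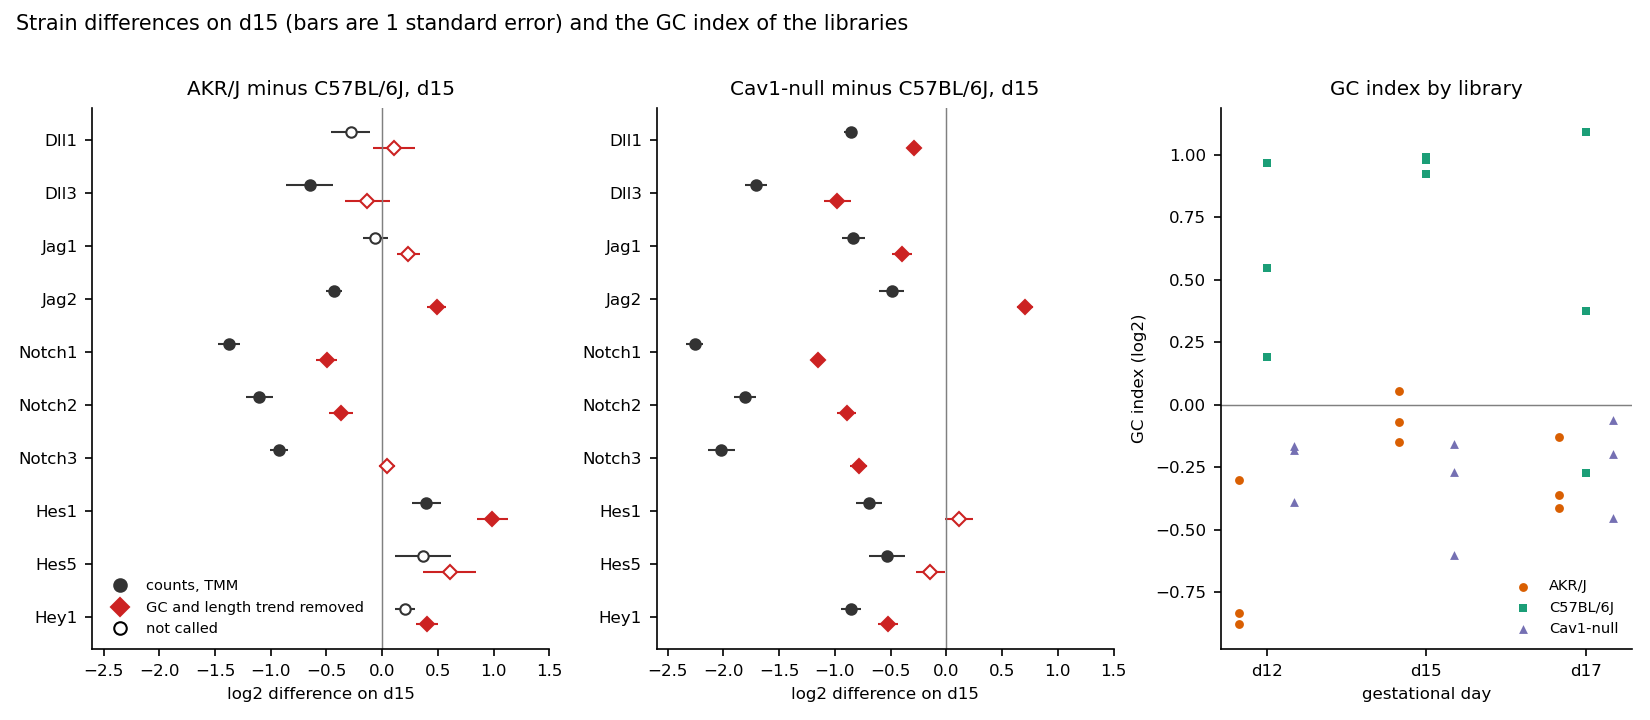
Left and centre, log2 difference on d15 of AKR/J and Cav1-null from C57BL/6J for each gene (bars 1 standard error, filled symbols at an adjusted p under 0.05), from the counts (circles) and with the GC and length trend removed (diamonds); right, the GC index of each library by day. Jag2 moves from below 0 to above 0 in both strains, and the 3 C57BL/6J d15 libraries have indices of 0.924 to 0.992.

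On d12, Jag2 was lower in AKR/J than in C57BL/6J (-0.88, SE 0.282, adjusted p = 0.0476), the 1 gene called of the 10 on a day when 28.6% of all genes differed, 14.5% higher and 14.1% lower, and 2 of the 6 fits that each left out 1 library still called it. The call was lost without AKR/J d12 replicate 1 or 3 and without C57BL/6J d12 replicate 1 or 2, and also with RLE size factors, and with the GC and length trend removed the difference was 0.22. With the replicate number as a block, Jag2 stayed called lower in AKR/J (-0.88), Notch2 was also called lower (-0.68) and Hes5 higher (0.78). Of all 19320 genes, 3115 were higher and 3451 lower in that fit. The block was chosen for this day from these same data, and the labels give no shared litter or batch behind the numbers. The calls of Notch2 and Hes5 therefore rest on a pairing that was not shown. With the trend removed the direction of the set turned, with 2 genes called higher and 0 lower (4 and 0 with the block as well) and a median of 0.35 in place of -0.26. Of all genes, 1735 were then higher and 1853 lower (1855 and 1991 with the block). Notch1 was then at 0.55 (adjusted p = 0.0254) and Notch3 at 1.18 (adjusted p = 0.0144). AKR/J lay below C57BL/6J without overlap for 3 genes on d12 and 4 on d17 (30.8% and 13.1% of all genes). Of the marker lists on d12, 5 of 11 neuron genes and 4 of 8 endothelial genes were lower in AKR/J and 0 higher. Of 14 erythroid genes 12 were higher and 1 lower, of 8 proliferation genes 2 were higher and 0 lower, and of 10 radial glia genes 1 was higher and 1 lower. Their part in the differences was not tested. Cav1-null on d12 had 0 genes called by edgeR, with 9 at an unadjusted p under 0.05, and it called 0.0% of all genes. With the GC and length trend removed 5 were at an unadjusted p under 0.05, and the median of the 10 genes was -0.50 in place of -0.80. DESeq2 called 6, and 2044 of all 19475 genes tested. All 10 values were below 0, and 9 of the 10 genes had no Cav1-null library reaching a C57BL/6J library, where 17.4% of all genes lay lower in this way. On d17, edgeR called 0 of the 10 in AKR/J (3 at an unadjusted p under 0.05, DESeq2 0, with 0.742% of all genes called by edgeR) and 0 in Cav1-null (6 at an unadjusted p under 0.05, DESeq2 0, with 0.0491% of all genes called by edgeR), where Cav1-null lay lower without overlap for 5 genes (6.16% of all genes). The 6 became 3 with the GC and length trend removed, 1 with the replicate block and 0 with both.

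Whether the changes between days differed between strains was tested by an interaction term over 12 libraries. Of the 10 genes, edgeR called 0 in all 4 tests, with 3 and 1 at an unadjusted p under 0.05 for AKR/J against C57BL/6J in the early and late phase and 3 and 6 for Cav1-null. DESeq2 called 1, 0, 1 and 4, and 1019, 45, 517 and 1436 of all genes, while edgeR called 0.0711%, 0.00468%, 0.00472% and 0.252% of all genes. The lowest adjusted p values were those of Notch3 (1.30, SE 0.325, adjusted p = 0.0755) and Notch2 (1.16, SE 0.297, adjusted p = 0.0763) for Cav1-null in the late phase. There, leaving out C57BL/6J d17 replicate 1, the library whose Notch1, Notch2 and Notch3 stood above its group and whose GC index was 1.09, gave 6 called genes, all above 0. That fit called 5792 of all 22227 genes, 3742 above 0 and 2050 below. For Hey1 the interaction was 0.45 (SE 0.164, adjusted p = 0.212) in AKR/J early, so the different phases of its fall were not a called difference.

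The rest of the pathway was read from a list of 49 other genes: further ligands, glycosyltransferases, ubiquitin ligases, gamma-secretase subunits, nuclear partners and further targets. In the early phase 10, 3 and 8 of them rose and 4, 6 and 16 fell in AKR/J, C57BL/6J and Cav1-null, of 47, 49 and 48 tested. Of all genes, 14.8%, 7.08% and 11.6% rose and 14.0%, 7.8% and 11.8% fell in that phase. In the late phase 3, 2 and 9 rose and 17, 9 and 12 fell, of 48 tested in each strain, where 11.6%, 7.46% and 14.5% of all genes rose and 10.4%, 5.58% and 12.8% fell. With the GC and length trend removed, 6, 2 and 8 rose and 9, 11 and 16 fell early, so that the balance turned in AKR/J, and 7, 6 and 8 rose and 15, 15 and 16 fell late. Of all genes, 2841, 1613 and 2495 then rose and 2875, 2166 and 2385 fell early, and 2257, 2133 and 2977 rose and 2109, 1627 and 3404 fell late. The AKR/J early balance did not turn with library sizes alone (10 rose and 0 fell, 3588 and 1214 of all genes) or in 1 model of all 27 libraries (17 and 5, 5475 and 4093 of all genes). With the replicate block 0 were called in the C57BL/6J early phase, as were 0 of all 19154 genes (5654 at an unadjusted p under 0.05). In 1 model of all 27 libraries, 1 rose and 2 fell in the Cav1-null late phase and 1 rose and 21 fell in that of C57BL/6J, where DESeq2 had 3 and 18. The medians were 0.22, 0.00 and -0.22 log2 in the early phase and -0.23, -0.32 and 0.03 in the late phase.

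Among the Fringe glycosyltransferases, which add a sugar to Notch receptors and so change which ligands they answer, Mfng fell in all 6 changes, by 0.77, 1.20 and 1.19 in the early phase and by 1.30, 1.64 and 1.45 in the late phase in AKR/J, C57BL/6J and Cav1-null. Lfng fell early in all 3 strains (by 0.69, 0.47 and 0.80), while Rfng rose early by 0.84 (AKR/J, adjusted p = 0.0109) and 0.63 (Cav1-null, adjusted p = 0.00136). Nrarp, a target that feeds back on Notch, fell early by 0.85, 0.96 and 1.35. Hes6, which is switched on in committed progenitors and counters Hes1, fell late by 0.79, 0.77 and 0.56. Of the ubiquitin ligases that help ligands to be internalised, 3 were named by the rule, which took genes called alike in the strains. Neurl1a rose early by 0.99, 1.11 and 0.93, Neurl1b by 1.64, 1.65 and 0.90, and Mib2 by 0.84, 0.53 and 0.56. With the GC and length trend removed, the early rises were 0.40 for Neurl1a (adjusted p = 0.149) and 0.35 for Mib2 (adjusted p = 0.0938) in AKR/J and 0.18 for Mib2 in C57BL/6J (adjusted p = 0.256). Dlk2, a Delta-like relative, rose late by 0.91, 0.80 and 0.46, and early by 2.96 in AKR/J (adjusted p = 0.000653) and 1.29 in Cav1-null (adjusted p = 0.00585), with 1.08 in C57BL/6J (adjusted p = 0.108). The values are log2 fold changes, from the counts unless stated, and those from the counts were called, unless a p above it is given, at an adjusted p under 0.05.

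Of the nuclear partners, the rule named 3 for their late fall. Maml1 fell by 0.63, 1.24 and 0.43, Maml3 by 0.60, 0.72 and 0.39, and Rbpj, the DNA-binding partner of all 3 receptors, by 0.57 (adjusted p = 0.014), 0.79 (adjusted p = 0.0459) and 0.45 (adjusted p = 0.00125) in AKR/J, C57BL/6J and Cav1-null. Of the remaining genes named by the rule, Psenen, a gamma-secretase subunit, fell early in AKR/J (by 1.36) and C57BL/6J (by 0.52) but not with the GC and length trend removed (-0.41, adjusted p = 0.201, and -0.21, adjusted p = 0.207), and Dtx1 rose early in AKR/J (by 2.36). Dner rose early in AKR/J by 1.28, where it was at 31.8, 27.2 and 35.1 CPM on d12 and at 53.7, 51.4 and 130 on d15. Without d15 replicate 3, which stood far above the other two, the change was 0.72 (adjusted p = 0.0536), and the call was also lost without d12 replicate 1, 2 or 3. Of the calls of the 15 named genes in AKR/J, C57BL/6J and Cav1-null, 2 of 11, 0 of 8 and 6 of 12 held in every fit that left out 1 library in the early phase, and 3 of 10, 1 of 7 and 7 of 10 in the late phase, and none but that of Dner moved by more than 1.5 times. Those of Mfng held in 4 of its 6 changes.

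**Figure D5:**
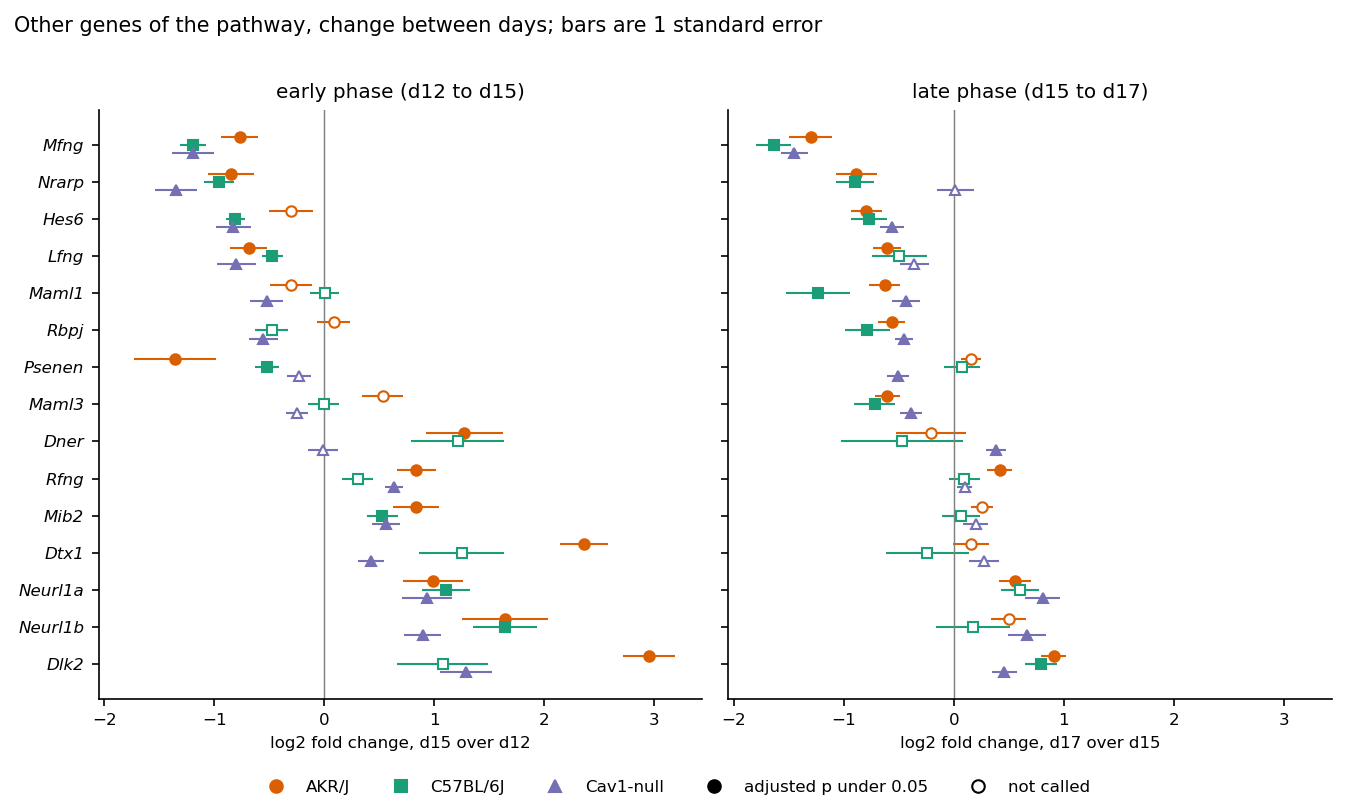
Log2 fold change (x axis) of 15 other pathway genes (y axis) between days in the 3 strains, with bars of 1 standard error and filled symbols at an adjusted p under 0.05. Mfng lies left of 0 in all 6 changes, and Neurl1a, Neurl1b and Mib2 lie right of 0 in the early phase.

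Between strains, AKR/J had 1 of the 49 genes higher and 16 lower than C57BL/6J on d12 and 4 higher and 23 lower on d15 (2 and 6, then 7 and 10, with the GC and length trend removed). Of all genes, 14.5% and 14.1% were higher and lower on d12 and 18.8% and 22.3% on d15. Cav1-null had 3 higher and 38 lower on d15 (10 and 22 of 48 with the trend removed), where 26.8% and 31.8% of all genes were higher and lower (5253 and 4404 of 19827 with the trend removed). On d17 the 1 gene called in AKR/J was Rbpj. Rbpj was lower in AKR/J on all 3 days. It was at 30.04, 30.3 and 29.1 CPM in AKR/J and at 104, 127 and 106 in C57BL/6J on d12, a log2 difference of -1.77 (SE 0.169, adjusted p = 0.00458). On d15 it was at 29.9, 32.0 and 36.2 against 76.4, 103 and 71.2 CPM (-1.29, SE 0.146, adjusted p = 0.000587), and on d17 at 25.3, 20.4 and 19.9 against 55.8, 37.0 and 46.2 CPM (-1.10, SE 0.187, adjusted p = 0.0451). No AKR/J library reached a C57BL/6J library on any day. Under 16 settings, the GC and length trend among them, the difference lay between -2.17 and -1.69 on d12 and between -1.403 and -1.12 on d15 and was called each time. On d17 it was called under 11 of 16, and it was lost without AKR/J d17 replicate 1, 2 or 3, without C57BL/6J d17 replicate 3 and without the globin, placental and yolk sac genes, with adjusted p up to 0.267.

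Cav1-null, which shares its background with C57BL/6J, had Rbpj at 94.0, 96.4 and 67.5 CPM on d12, at 57.4, 55.2 and 62.6 on d15 and at 42.1, 45.5 and 40.2 on d17. Each of these libraries lay above the AKR/J libraries of its day. On d15 Cav1-null was also lower than C57BL/6J (-0.48, SE 0.119, adjusted p = 0.00596), by -0.59 to -0.28 under 16 settings and called in each, while on d12 and d17 it was called in 0 of 16. A processed pseudogene of Rbpj, Rbpj-ps3, which was named after its values were seen, moved with the strain difference. It held 69 to 221 reads in each of the 9 AKR/J libraries, 185 and 149 in C57BL/6J d15 replicates 1 and 3, and 0 to 9 in the other C57BL/6J libraries and the Cav1-null libraries. Its part in the Rbpj result was not tested, and reads of the gene and its copies can be shared out differently by counting. Reads over 3 Rbpj splice junctions, which a processed copy lacks, numbered 15, 33 and 21 in AKR/J and 79, 106 and 87 in C57BL/6J on d12, 64, 54 and 64 against 103, 91 and 105 on d15, and 26, 15 and 29 against 41, 17 and 43 on d17. They were apart on d12 and d15 and overlapped on d17. In Cav1-null they numbered 42, 65 and 58 on d12, above AKR/J, 49, 30 and 26 on d15, and 19, 18 and 30 on d17. Scaled as CPM, Cav1-null junction reads overlapped with those of AKR/J on d15 and d17, but with lower means, unlike the gene counts. On d15 they were 1.71, 0.969 and 0.882 in Cav1-null against 2.01, 1.65 and 2.05 in AKR/J (gene means 58.4 and 32.7 CPM). On d17 the junction means were 0.734 and 0.785 (gene means 42.6 and 21.85). In AKR/J and C57BL/6J the junction means were 0.925 and 2.87 on d12 (gene means 29.8 and 112.6). On d15 they were 1.90 and 2.86 (gene means 32.7 and 83.6). The gap between junction and gene counts was not tested.

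Markers of some other cells moved with these changes. Of all genes tested, 14.8%, 7.08% and 11.6% rose and 14.0%, 7.8% and 11.8% fell early in AKR/J, C57BL/6J and Cav1-null. Late, 11.6%, 7.46% and 14.5% rose and 10.4%, 5.58% and 12.8% fell. Of 8 proliferation genes, 7, 7 and 8 fell in the early phase in AKR/J, C57BL/6J and Cav1-null and 8, 7 and 8 in the late phase, and their summed level went from 960 to 2149 CPM on d12 to 254 to 457 on d17. Of 10 radial glia genes, 6, 2 and 6 fell in the early phase and 7, 5 and 6 in the late phase, with 1, 0 and 1 and then 2, 1 and 1 that rose. Of 6 intermediate progenitor genes, 2, 3 and 4 fell early and 4, 6 and 6 late. Of 11 neuron genes, 8, 4 and 4 rose early and 3, 3 and 7 late, with 1 that fell late in C57BL/6J. Of 7 astrocyte genes, 3, 1 and 0 rose early and 2, 2 and 6 late, with 2 that fell early in Cav1-null. Of 5 oligodendrocyte genes, 2, 3 and 1 rose early and 1, 0 and 5 late. The vessel lists did not follow the falls in this way. Of 8 endothelial genes, 2, 0 and 0 rose and 0, 0 and 1 fell early, and 0, 0 and 1 rose and 4, 0 and 0 fell late. Of the mural genes, 3, 0 and 1 rose and 1, 0 and 1 fell early, and 1, 0 and 1 rose and 1, 0 and 0 fell late. In the AKR/J early phase, where Notch3 fell, the mural median was 0.24 log2. The part of these cell types in the changes of the Notch genes was not tested. Leaving out the globin, placental and yolk sac genes before scaling left every one of the 60 day changes of the 10 genes with its direction and its side of the threshold.

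The genes whose levels across the 27 libraries were most like those of each gene were listed as a description, from 11130 genes and with Pearson's r of log2 CPM. The libraries share strains, days, depth and the GC trend. Notch1 was nearest to Myo10 (r = 0.988), Shroom3 and Ddr1, Notch2 to Ptk7 (0.976), Mmp14 and Polr2a, and Notch3 to Lama1 (0.963), Mtcl1 and Col18a1. Dll1 was nearest to Otx1 (0.990), Sema5b and Nuak2. Otx1 and Dll1 (0.973) were among the genes most like Dll3. Jag1 was nearest to Aebp2 (0.964), Boc and Vim, the radial glia intermediate filament. Jag2 stood apart, nearest to Begain (0.981), Slc4a3 and Lzts3, with r from -0.77 to -0.017 to the other nine genes. Hes1 was nearest to Tk1 (0.962), Tmem98 and Anln, Hes5 to Jam2 (0.957), Ring1 and Lbr, and Hey1 to Nrarp (0.925), Ccnd1 and Phgdh.

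The place of the genes in the genome bears on what was counted. On GRCm39 with GENCODE vM39, Notch1 (ENSMUSG00000026923) lies at chr2:26347915-26406675 on the minus strand and shares 2410 bases of exon with genes on the opposite strand, and Dll1 (ENSMUSG00000014773), at chr17:15587276-15597134 on the minus strand, shares 1725. Jag2 (ENSMUSG00000002799) lies at chr12:112871421-112893437 on the minus strand, with 21 shared bases on the same strand, and Dll3 (ENSMUSG00000003436) at chr7:27992978-28001673 shares none. Notch3, Hes5, Hey1, Hes1 and Jag1 share 804, 440, 271, 75 and 72 bases with the opposite strand, and Notch2 shares 541 on its own. Whether counting used the strand was not given, so reads of these stretches cannot be told apart. Reads that span splice junctions (1 to 11 junctions per gene) had the same direction in every called day change of the 10 genes except Notch2 in the Cav1-null early phase. Of the 60 values, 28 moved by more than their standard error in junction reads, besides that of Notch2.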

How the data were processed

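Poly(A) RNA of 27 whole fetal brains was sequenced from both ends by the authors. Per the labels and methods, the authors used FastQC for quality, cutadapt for adaptors and fastp for trimming, and aligned to GRCm39 with STAR. The deposited gene table holds whole read counts per Ensembl gene, not normalized. The counting tool, its use of strand and all versions are not given in the sources used here. The deposited junction table holds read counts per splice junction from 2-pass mapping, from which the authors removed multi-mapped, short-overhang and low-read junctions, so a 0 there may be removed reads.

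Libraries were grouped by labelled strain and day. Each of 12 pairwise comparisons was fitted on its 6 libraries, and each of 4 interactions on 12, in R 4.3.3 with edgeR 4.0.16 (filterByExpr, TMM, quasi-likelihood test), with Benjamini-Hochberg adjustment over all genes tested and calls at an adjusted p under 0.05. Standard errors were taken as the size of the log2 fold change divided by the root of the F statistic. Levels are CPM on TMM-scaled library sizes over all 27 libraries, with means ± SD of 3. Exon lengths and promoter positions are from GENCODE vM39 on GRCm39. Alternatives were DESeq2 1.42.0, other scalings, no filter, 1 model of all 27 libraries, no globin, placental or yolk sac genes, a replicate block, leaving out each library, and junction reads. A spline trend of GC content and transcript length was added after seeing the data, as were the check of Rbpj and the leaving out of libraries for the other pathway genes. On simulated counts with 200 changed genes per comparison, the test recovered 13% of 2-fold and 89% of 4-fold changes in the AKR/J early phase and 89% and 100% in the Cav1-null late phase, the ends of the range over day changes, where 3.4% to 10.4% of the calls were false. No pair of replicates agreed within sampling noise.

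Replicate numbers were taken as pairs in 1 of the 12 pairwise comparisons, AKR/J against C57BL/6J on d12, where the deviations of every same-numbered pair correlated (r = 0.134, 0.315 and 0.301). Over the 12 comparisons r ran from -0.555 to 0.46, and the labels give no shared litter or batch, so a pairing was not shown. All 10 genes are named in every comparison. Of the 49 other pathway genes, up to 15 were named that were called alike in all 3 strains in a phase, or in at least 2 strain differences or interactions. The genes and lists were chosen with earlier results of these data known. Some items are not reported here.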

Additional observations from a re-analysis of the deposited data

Results flagged for a closer look

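The Hey1 libraries of the strains were ordered differently in the late phase. All Cav1-null d17 libraries lay above those of d15 (log2 fold change 0.07, SE 0.1, adjusted p = 0.657, no called change), while all d17 libraries of AKR/J and of C57BL/6J lay below their d15 libraries. The interaction of Cav1-null with C57BL/6J was 0.32 (adjusted p = 0.369), which is not a called difference.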

How the results depend on the processing

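Of the 60 day changes of single genes, the count that kept its side of the threshold, and its direction where called, was 60 without globin, placental and yolk sac genes, 58 with RLE size factors, 57 with no filter on low counts, 54 with DESeq2, 54 with library sizes alone, 52 with the GC and length trend removed and 46 in 1 model of all 27 libraries. The number of genes called moved by more than 1.5 times as follows, and the cause was not tested. In the AKR/J early phase it was 2 with library sizes alone. In the C57BL/6J early phase it was 8 with DESeq2, 0 with the replicate block and 8 with the GC and length trend removed. In the Cav1-null late phase it was 0 in 1 model of all 27 libraries. For AKR/J against C57BL/6J on d12 it was 0 with RLE size factors, 2 with no filter, 3 in 1 model, 3 with the replicate block, 2 with the trend removed and 4 with the trend removed and the block. On d15 it was 3 with the trend removed and the block, and on d17 it was 1 with no filter, 1 in 1 model and 1 with the block. For Cav1-null against C57BL/6J on d12 it was 6 with DESeq2, 5 with no filter and 7 in 1 model. Among interactions, AKR/J early had 1 with DESeq2 and 1 with the trend removed, Cav1-null early had 1 with DESeq2, and Cav1-null late had 4 with DESeq2 and 4 with no filter.

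Leaving out each library in turn gave 3 to 7 and 6 to 10 called genes in the AKR/J early and late phase, 0 to 7 and 0 to 7 in C57BL/6J, and 7 to 10 and 5 to 7 in Cav1-null. For AKR/J against C57BL/6J it gave 0 to 3, 4 to 6 and 0 to 1 on d12, d15 and d17, and for Cav1-null 0 to 4, 9 to 10 and 0 to 4. For the interactions it gave 0 to 1 and 0 to 2 in AKR/J and 0 to 1 and 0 to 6 in Cav1-null. Where 1 group was left with 2 libraries, the spread was still estimated over both groups.

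Turned directions were those of Jag2 (0.22, and 0.21 with the replicate block as well) and Notch1 (0.55, and 0.56 with the block) in AKR/J on d12, Jag2 (0.49 and 0.49) and Notch3 (0.045 and 0.046) in AKR/J on d15, and Jag2 (0.71 and 0.71) and Hes1 (0.11 and 0.11) in Cav1-null on d15, all with the GC and length trend removed. These are the turns in which either value was called. Values called in neither fit also changed sign, in 13 strain differences, 10 interactions and 1 day change with the trend removed, in 4, 9 and 2 with library sizes alone, and 15, 23 and 6 times with 1 library left out. Notch2 in the Cav1-null early phase was at 0.35 in junction reads, which cover 1 of its junctions. The same-numbered libraries deviated together with r from -0.555 to 0.46, and besides AKR/J against C57BL/6J on d12, the numbers were not taken as pairs. The replicate block gave 6 called genes in the AKR/J early phase, 9 and 7 in the Cav1-null early and late phases and 5 for AKR/J against C57BL/6J on d15. On simulated counts, 2-fold changes were recovered least often in the AKR/J early phase among the 6 day changes (13%).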
